A study of Homo sapiens with 24 samples.

Results

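The ZEB and SNAI repressors and the adhesion genes they are known for were followed through 24 polyadenylated RNA libraries of human embryonic stem cells. The 9 genes were taken by symbol from both deposited count tables, out of 60671 genes listed in each. They are ZEB1, ZEB2, SNAI1, SNAI2, CDH1, CDH2, CDH3, EPCAM and VIM, a set chosen with earlier results of these data known. The study used H1 and H9, established human embryonic stem cell lines, in 8 groups of 3 libraries. Of the H1 libraries, 3 had CARHSP1 knocked down in primed cells and 3 were their nontargeting primed control. A further 3 had ZNF8 knocked down in naive cells and 3 were their nontargeting naive control. The last 6 came from day 2 of ectoderm differentiation, 3 with ZIC2 knocked down and 3 nontargeting. Doxycycline is listed for all 18 H1 libraries, controls included. The 6 H9 libraries, 3 naive and 3 primed, carry no knockdown label and no doxycycline label. Primed cells resemble the epiblast after implantation and naive cells the epiblast before it. The labels give neither the number of clones nor how a knockdown was built, and describe the same maintenance medium for every library. They do not call the 3 libraries of a group separate cultures, so every p-value below covers the spread between these libraries only, which may be technical.

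E-cadherin (CDH1) joins epithelial cells to each other through calcium-dependent contacts, and N-cadherin (CDH2) does so in neural and mesenchymal cells. When the neural plate forms, cells exchange the first for the second, a cadherin switch that is also a hallmark of epithelial-to-mesenchymal transition. ZEB1, ZEB2, SNAI1 (Snail) and SNAI2 (Slug) are zinc finger proteins that bind E-box sequences and repress epithelial genes, while microRNAs of the miR-200 family bind the ZEB transcripts and are themselves repressed by ZEB proteins. CDH3 encodes P-cadherin, EPCAM an epithelial adhesion molecule abundant on pluripotent cells, and VIM vimentin, the intermediate filament of mesenchymal cells.

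The microRNA sequences are shown because ZEB1 and ZEB2 are their best known targets and because the pairing can be read letter by letter. They come from RefSeq (GRCh38.p14), are written 5′ to 3′, and carry the seed, bases 2 to 8, in capitals. Members with the seed AACACUG and members with AAUACUG differ within the seed, and miR-205 has a seed of its own.
hsa-miR-200a-3p: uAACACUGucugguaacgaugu
hsa-miR-141-3p: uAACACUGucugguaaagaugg
hsa-miR-200b-3p: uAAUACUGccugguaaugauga
hsa-miR-200c-3p: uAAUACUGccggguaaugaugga
hsa-miR-429: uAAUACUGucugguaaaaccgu
hsa-miR-205-5p: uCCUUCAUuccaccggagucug

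The longest annotated 3′ UTR of ZEB1, 2549 bases in GENCODE 29, held 6 copies of CAGTATT, the complement of the AAUACUG seed, 3 of CAGTGTT, the complement of AACACUG, and 1 of ATGAAGG, the complement of the miR-205 seed. The 5370-base 3′ UTR of ZEB2 held 5, 4 and 0. Only the sense strand was searched, and none of the motifs is contained in another. Over 19128 annotated 3′ UTRs, 0.84% held 3 or more CAGTATT and 1.02% held 3 or more CAGTGTT, without matching for length. Of the other 7 genes, SNAI2 had 1 CAGTATT and CDH3 had 1 ATGAAGG, and the remaining 5 had none of the 3 motifs. A letter match describes the sequence and is not evidence of binding. For each ZEB gene 2 sites are shown, 1 for each miR-200 seed, with the complement of the seed in capitals. They lie in the 3′ UTR at chr10:31527622-31527646 and chr10:31528035-31528059 on the plus strand for ZEB1, and at chr2:144389046-144389070 and chr2:144389230-144389254 on the minus strand for ZEB2 (GRCh38).
ZEB1 site for AAUACUG: ttttatcttatCAGTATTatcactc
ZEB1 site for AACACUG: atcatcagaatCAGTGTTtgtgatt
ZEB2 site for AAUACUG: ctaccatacatCAGTATTtttatta
ZEB2 site for AACACUG: aaaattttgtaCAGTGTTaaggcct

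ZEB and SNAI proteins are known to bind the E-box CAGGTG, which was searched on both strands in RefSeq promoter windows of 250 bases before to 50 bases after a start site. Windows were at hand for ZEB1, ZEB2, CDH2 and VIM, and not for SNAI1, SNAI2, CDH1, CDH3 and EPCAM. CAGGTG was found in 2 of the 7 ZEB1 windows, and its letters are not in the window of ZEB2, the 2 windows of CDH2 or that of VIM. Over all 35116 windows, 20.59% held it at least once and 0.64% at least 3 times. The ZEB1 window with 3 copies, at chr10:31318966-31319265 on the plus strand (GRCh38.p14), is shown because it was the member window with most of them, with CAGGTG or its complement CACCTG in capitals.
ZEB1 promoter window: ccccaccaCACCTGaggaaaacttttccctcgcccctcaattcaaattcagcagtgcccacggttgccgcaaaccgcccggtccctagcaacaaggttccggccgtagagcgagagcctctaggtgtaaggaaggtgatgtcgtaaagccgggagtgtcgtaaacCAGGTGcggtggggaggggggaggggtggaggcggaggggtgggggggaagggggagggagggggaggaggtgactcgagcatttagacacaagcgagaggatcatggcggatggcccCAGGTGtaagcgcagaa

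Libraries held 6756704 to 20773963 counts, with no library set apart by depth. Levels are given as CPM, counts scaled to the total of the library times its TMM scaling factor, on a scale common to all 24 libraries. Changes are given as log2 ± SE of the edgeR quasi-likelihood fit of a pair of groups, with p adjusted over all genes tested and called under 0.05. A gene had to pass the edgeR low-count filter to be tested. The knocked down genes checked the labels. CARHSP1 had 21.1, 17.98 and 18.7 CPM in its knockdown against 154, 147 and 147 CPM in the primed control, and ZIC2 had 264, 264 and 272 CPM in its knockdown against 612, 546 and 496 CPM in the ectoderm control. ZNF8 had 15.6, 15.5 and 17.7 CPM in its knockdown against 23.2, 18.6 and 17.7 CPM in the naive control, which did not pass the test (log2 −0.32 ± 0.13; edgeR adjusted p = 0.0664), so that knockdown is named by its label. Among markers, 10 naive pluripotency genes summed to 429 to 435 CPM in naive H9 libraries against 218 to 229 CPM in primed H9 libraries, and the naive factor KLF17 had 2 counts in all over the 3 naive H9 libraries. The neural ectoderm list summed to 819 to 929 CPM in the ectoderm control against 51.6 to 62.3 CPM in the primed control.

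ZEB2 was the member with the sharpest pattern, present on day 2 of ectoderm differentiation and at or near 0 in every other group. ZEB1 stayed below 3 CPM in every library. SNAI1 was measured in all 24 libraries and SNAI2 had at most 1.06 CPM outside the ZNF8 knockdown, where it had 1.47 to 2.71 CPM. Per kilobase of gene length, as the deposited table gives it, CDH1 was the most abundant cadherin in every group, between 79.5 ± 3.17 CPM per kb in primed H9 and 149.5 ± 5.21 in the naive H1 control. CDH3 came between 38.4 ± 0.507 CPM per kb in the ectoderm control and 64.1 ± 1.5004 in naive H9, and CDH2 between 1.33 ± 0.0434 in naive H9 and 19.2 ± 1.09 in the ectoderm control (SD, n = 3 each). ZEB2, at 4.86 ± 0.296 CPM per kb in the ectoderm control, was the more abundant ZEB gene there, against 0.241 ± 0.0739 for ZEB1. In bulk RNA, fewer cells with a transcript and less of it per cell cannot be told apart.

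**Figure D1:**
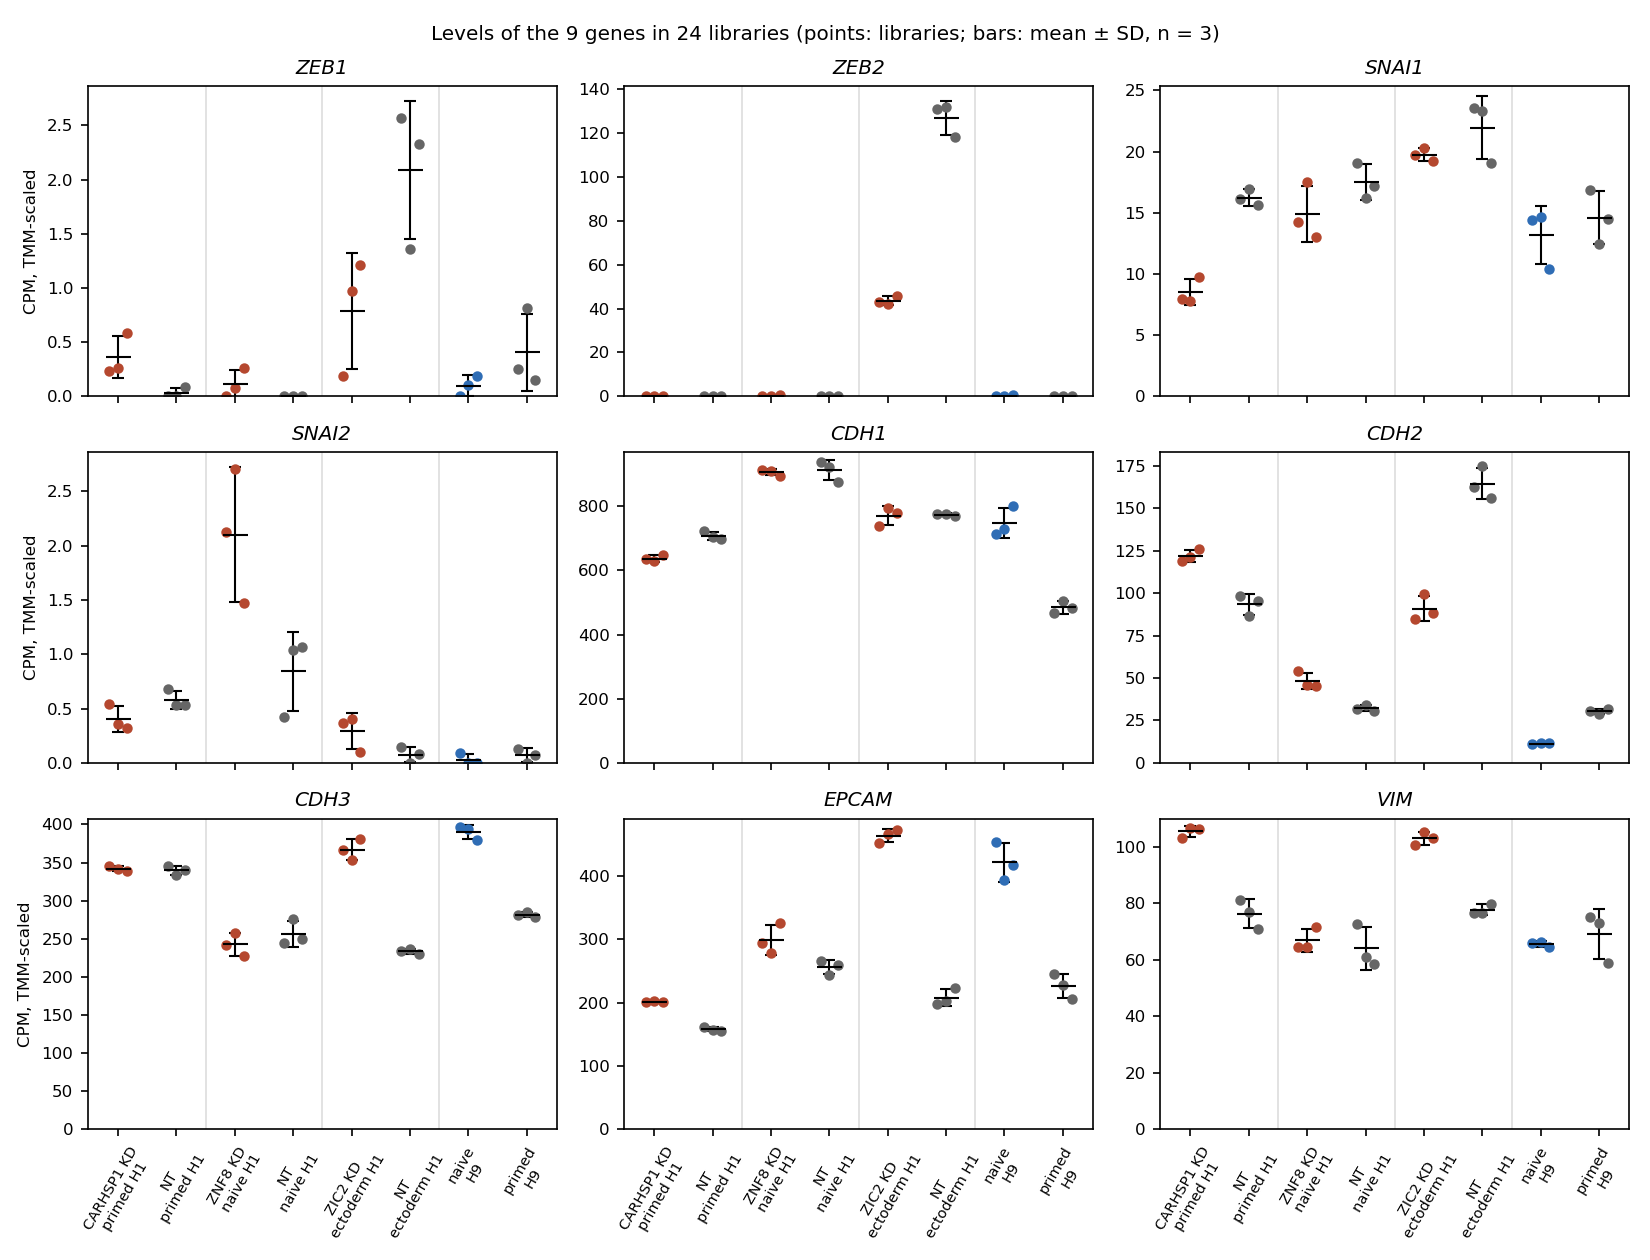
Level of each of the 9 genes in CPM (vertical axis, linear from 0, a separate range in each panel) in 24 libraries by group, with points for libraries and bars for mean ± SD, n = 3; each knockdown stands left of its control and naive H9 left of primed H9. ZEB2 was at 42.0 to 45.8 CPM in ZIC2 knockdown ectoderm, at 118 to 132 CPM in control ectoderm and below 1 CPM in the other 6 groups.

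On the order of group means, ZEB2 fell into 3 steps that did not overlap, control ectoderm, ZIC2 knockdown ectoderm and all others, and among the other 6 groups each neighbour overlapped the next. The order of CDH2 was control ectoderm, CARHSP1 knockdown, primed control, ZIC2 knockdown, ZNF8 knockdown, naive control, primed H9 and naive H9. Its only overlapping neighbours were the primed control with the ZIC2 knockdown and the naive control with primed H9. CDH1 was highest in the naive H1 groups and lowest in primed H9, at 467, 505 and 483 CPM, and its middle 4 groups overlapped along the order. EPCAM was highest in ZIC2 knockdown ectoderm and lowest in the primed control. VIM had group means from 63.9 ± 7.49 CPM in the naive control to 105 ± 1.94 CPM in the CARHSP1 knockdown (SD, n = 3 each).

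Knocking down ZIC2, a zinc finger factor of early neural development, asks which genes of differentiating ectoderm depend on it. On day 2 the knockdown cells had less ZEB2 and less CDH2, more EPCAM, CDH3 and VIM, and CDH1 at a level whose difference from the control did not pass. Of the 8 members tested, 3 were called higher and 2 lower, where 28.1% of all 15013 genes tested were called (15.3% higher, 12.8% lower). The groups did not overlap for 6 of the 8, against 41% of all genes tested. The median log2 change of those 8 was −0.08, against −0.01 over all genes tested.

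ZEB2, which in the embryo is a factor of the neural plate and neural crest, had 43.0, 42.0 and 45.8 CPM in the ZIC2 knockdown against 131, 132 and 118 CPM in the ectoderm control. All 3 knockdown libraries were far below all 3 control libraries, a 2.93-fold lower level (log2 −1.55 ± 0.08; edgeR adjusted p = 2.64e-12). The gene (ENSG00000169554) lies on the minus strand at chr2:144364364-144524583 (GRCh38). ZEB2-AS1, an antisense RNA over its start region, had 0, 0 and 1 counts in the knockdown against 3, 4 and 3 in the control and no count in the other 6 groups. ZEB1 had 2, 12 and 12 counts in the knockdown, at 0.185, 0.968 and 1.21 CPM, against 18, 14 and 28 counts in the control, at 2.57, 1.36 and 2.33 CPM. The groups did not overlap, but the lower level missed the threshold (log2 −1.39 ± 0.54; edgeR adjusted p = 0.0590), as it did in all 13 alternatives (0.0524 to 0.241). ZEB1-AS1, which overlaps the start of ZEB1 on the other strand, had more counts than ZEB1 itself, at 4.65 ± 1.63 CPM in the knockdown and 6.03 ± 2.43 CPM in the control (SD, n = 3 each). The labels do not say whether strand was used in counting, so reads of the ZEB genes and their antisense partners may be mixed.

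The SNAI genes showed no called change. SNAI1 had 19.7, 20.3 and 19.2 CPM in the ZIC2 knockdown against 23.6, 23.3 and 19.0 CPM in the control, and the groups overlapped (log2 −0.15, 95% interval −0.42 to 0.11; edgeR adjusted p = 0.434). SNAI2 was below the filter, with 10 counts over the knockdown libraries and 2 over the control libraries.

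Of the cadherins, CDH2 was called lower and CDH3 higher. CDH2 had 84.9, 99.2 and 88.4 CPM in the ZIC2 knockdown against 163, 175 and 156 CPM in the control, all knockdown libraries below all controls and 1.82-fold lower (log2 −0.87 ± 0.07; edgeR adjusted p = 7.09e-09). CDH1 had 738, 795 and 778 CPM in the knockdown against 775, 777 and 768 CPM in the control, with the control values inside the range of the knockdown (log2 −0.01, 95% interval −0.12 to 0.09; edgeR adjusted p = 0.872). CDH3, which lies next to CDH1 on chromosome 16, had 367, 353 and 381 CPM in the knockdown against 234, 236 and 230.2 CPM in the control. It was 1.56-fold higher in the knockdown, with no overlap (log2 0.64 ± 0.06; edgeR adjusted p = 2.55e-08). The neighbouring CDH1 and CDH3 genes thus gave a called rise for P-cadherin only.

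EPCAM and VIM were both higher. EPCAM had 453, 467 and 473 CPM in the ZIC2 knockdown against 198, 203 and 223 CPM in the control, 2.21-fold higher and the largest rise among the 8 members tested (log2 1.15 ± 0.06; edgeR adjusted p = 3.64e-12). VIM had 100.5, 105 and 103 CPM in the knockdown against 76.5, 76.7 and 79.8 CPM in the control (log2 0.40 ± 0.07; edgeR adjusted p = 0.000234). Neither gene's groups overlapped.

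In this comparison many other genes of the epithelial state rose with EPCAM. Of 34 epithelial junction and polarity genes, all tested, 28 rose and 0 fell in the ZIC2 knockdown, with a median log2 change of 0.82 against −0.01 over all genes tested. No gene of the list was lower at an unadjusted edgeR p under 0.05 (0 genes) or by DESeq2 (0 genes). The 3 with the smallest p were keratin genes and a desmosomal plaque gene. KRT18 averaged 170.4 ± 1.59 CPM in the knockdown and 73.7 ± 2.49 CPM in the control (log2 1.20), KRT8 averaged 296 ± 14.99 and 134 ± 15.6 CPM (log2 1.13), and PKP2 averaged 47.6 ± 1.48 and 13.3 ± 2.81 CPM (log2 1.81; SD, n = 3 each). The keratins have close copies in the genome, so their counts are uncertain. The transcription factors GRHL3 (log2 3.68) and OVOL1 (log2 2.41) and the splicing factor ESRP2 (log2 1.14) also rose, and are named here after their values were seen. A list of 8 EPCAM partners and proteases did not rise. Of its 7 genes tested, 0 rose and 2 fell, with a median of −0.19. In it 0 genes were higher at an unadjusted edgeR p under 0.05 and 0 by DESeq2. After adjusting for GC content and transcript length, 0 of the 7 were called.

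The mesenchymal list did not fall. Of its 26 genes 19 were tested, 11 rose and 2 fell, with a median of 0.41. TAGLN, an actin-binding gene, rose to 111 ± 5.31 CPM in the ZIC2 knockdown against 11.7 ± 0.781 CPM in the control (log2 3.22 ± 0.10). MMP14, a membrane protease, averaged 182 ± 8.67 CPM in the knockdown and 109 ± 5.64 CPM in the control (log2 0.73), and the collagen gene COL1A1 averaged 114 ± 17.8 and 53.6 ± 4.65 CPM (log2 1.08; SD, n = 3 each). Among 16 other cadherins, 10 were tested, CDH8 rose, and CDH7, CDH9 and CDH10 fell. Of 10 catenins and cadherin partners, VCL, NECTIN1 and NECTIN2 rose, and CTNNB1 and NECTIN3 fell. CDH10, CTNNB1 and NECTIN3 are named after their values were seen. Without control replicate 2, 3 of the partners were called, all higher.

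Markers of other cell types also differed between these groups. The 10 neural ectoderm genes summed to 655 to 713 CPM in the ZIC2 knockdown against 819 to 929 CPM in the control, and the 6 core pluripotency genes to 5036 to 5321 CPM against 6078 to 6596 CPM. These sums are led by the abundant genes and did not hold gene by gene. Of 7 neural ectoderm genes tested, 2 were called higher and 1 lower, with a median log2 change of −0.06. Of the 6 core pluripotency genes, 1 was called higher, NANOG (log2 1.04), and 2 lower. The 9 neural crest genes summed to 179 to 195 CPM in the knockdown against 87.2 to 91.0 CPM in the control. The 10 trophoblast and amnion genes summed to 69.5 to 74.9 CPM in the knockdown, with GATA3 at 1.52 to 2.78 CPM, against 49.1 to 57.3 CPM in the control, where GATA3 had no count. The 9 fibroblast genes summed to 225 to 255 CPM in the knockdown against 132 to 144 CPM in the control, with COL3A1, DCN, LUM, POSTN and FAP at 0 counts in both. Their part in the changes of the members was not tested.

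**Figure D2:**
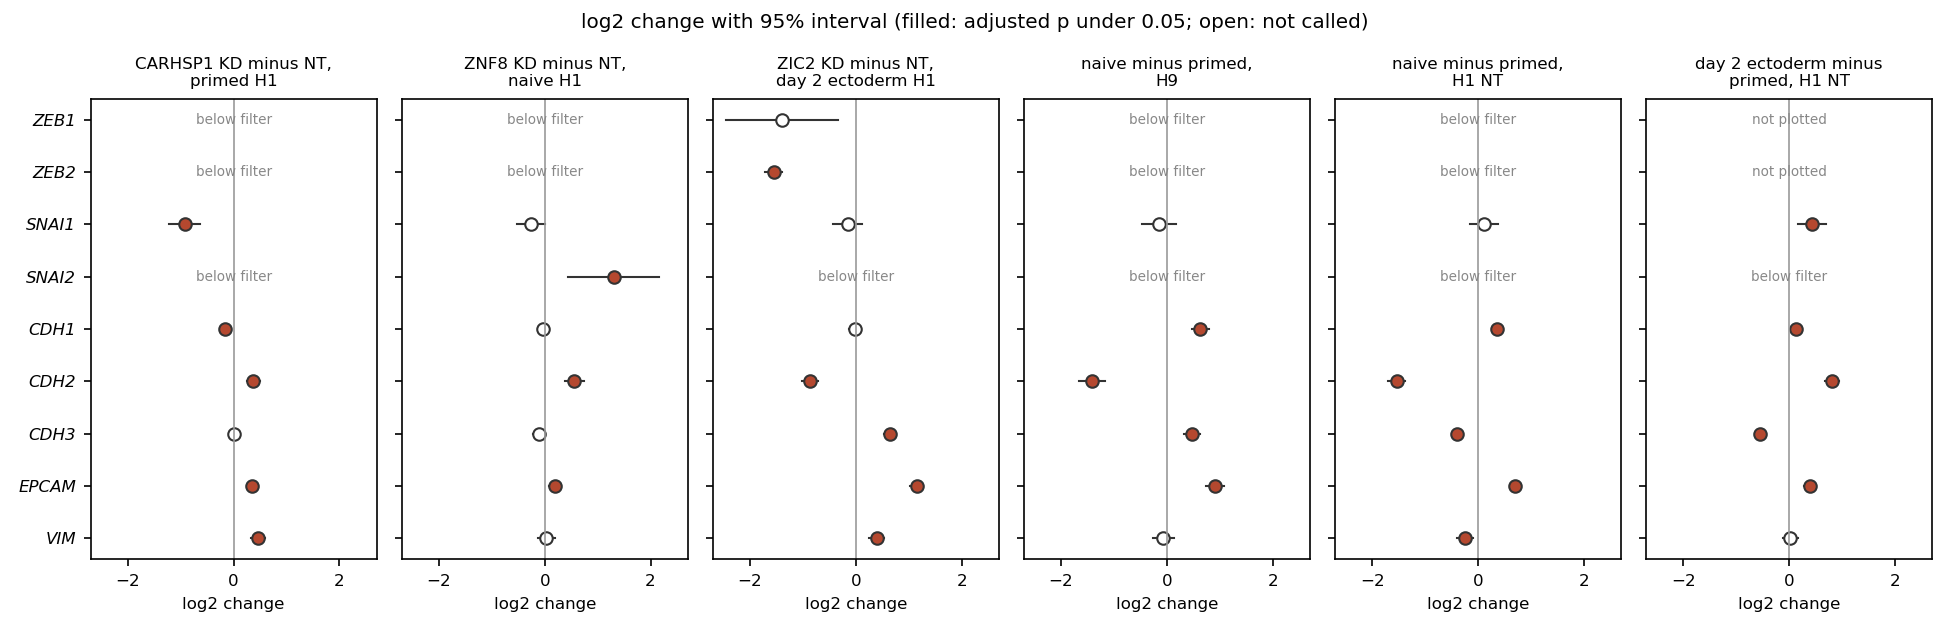
log2 change with its 95% interval (horizontal axis) of each gene in 6 comparisons, filled where the edgeR adjusted p was under 0.05; "below filter" marks genes with too few counts, and ZEB1 and ZEB2 are not plotted for ectoderm because the primed control held 1 and 0 counts. CDH2 was lower in the ZIC2 knockdown (−0.87) and in naive cells of both lines (−1.41 in H9, −1.54 in H1), and higher in the CARHSP1 and ZNF8 knockdowns (0.37 and 0.56).

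Control ectoderm was set against the primed control, which share cell line, nontargeting label and doxycycline, to follow differentiation without a targeted gene. By day 2 ZEB2 had appeared and CDH2 had risen, while CDH1 was not lower. Both cadherin transcripts were present in control ectoderm and already in the primed control. Of 8 members tested, 6 were called higher and 1 lower, where 62.8% of all 15409 genes tested were called (30.7% higher, 32.1% lower). The groups did not overlap for 7 of the 8, against 65.6% of all genes tested. This comparison and that of the ZIC2 knockdown share the 3 control ectoderm libraries, and this comparison and that of the CARHSP1 knockdown share the 3 primed control libraries.

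ZEB2 had 916, 1352 and 1419 counts in control ectoderm and no count in the 3 primed control libraries, which makes it at least 1345-fold higher, taken against 3 counts over the primed group (edgeR adjusted p = 5.16e-25). ZEB1 had 60 counts in control ectoderm and 1 in the primed control, a ratio of 65.7 with an exact 95% counting interval of 11.3 to 2636 (edgeR adjusted p = 1.67e-06). Even so its level in ectoderm, 2.09 ± 0.639 CPM, was low. SNAI1 had 23.6, 23.3 and 19.0 CPM in ectoderm against 16.2, 17.0 and 15.6 CPM in primed cells (log2 0.43 ± 0.13; edgeR adjusted p = 0.00708), and SNAI2 had 2 counts against 19, below the filter and 8.68-fold lower with a counting interval of 2.09 to 76.9. Counting intervals cover counting error only.

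CDH2 had 163, 175 and 156 CPM in control ectoderm against 98.5, 86.6 and 95.5 CPM in the primed control, 1.75-fold higher with no overlap (log2 0.81 ± 0.07; edgeR adjusted p = 1.51e-11). CDH3 went the other way, at 234, 236 and 230.2 CPM in ectoderm against 345, 334 and 339.7 CPM in primed cells (log2 −0.54 ± 0.05; edgeR adjusted p = 5.96e-10). CDH1 was at 775, 777 and 768 CPM in ectoderm against 723, 704 and 699 CPM in primed cells (log2 0.12 ± 0.05; edgeR adjusted p = 0.0302). That small rise was lost in 7 of 13 alternatives, among them removing any 1 primed control library (adjusted p 0.0647 to 0.103) and adjusting for GC content and transcript length (0.584). EPCAM averaged 208 ± 13.2 CPM in ectoderm and 158 ± 3.06 CPM in primed cells (log2 0.40 ± 0.06; edgeR adjusted p = 1.22e-06). VIM averaged 77.7 ± 1.87 and 76.2 ± 5.18 CPM, and its groups overlapped (edgeR adjusted p = 0.783; SD, n = 3 each).

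Beside the members, 25 of the 34 epithelial junction and polarity genes fell and 3 rose in control ectoderm against the primed control, with a median of −0.80. EPCAM, higher in ectoderm, went the other way from most of that list. KRT18 averaged 73.7 ± 2.49 CPM in ectoderm and 325 ± 24.8 CPM in primed cells, KRT8 134 ± 15.6 and 442 ± 16.5 CPM, and PKP2 13.3 ± 2.81 and 59.0 ± 4.45 CPM. Of the mesenchymal list 21 genes were tested, 15 fell and 4 rose, with FN1, fibronectin, at 113 ± 7.31 CPM in ectoderm and 517 ± 9.42 CPM in primed cells. The surface gene THY1 averaged 58.3 ± 4.01 and 409.7 ± 4.54 CPM, and the collagen gene COL6A1 83.9 ± 2.68 and 259 ± 3.47 CPM. Of 10 other cadherins tested 5 rose and 5 fell. CDH9 averaged 27.3 ± 2.58 CPM in ectoderm and 0.715 ± 0.186 CPM in primed cells, CDH11 averaged 45.1 ± 2.21 and 13.8 ± 2.31 CPM, and CDH10 had 3.16 ± 1.27 CPM in ectoderm and no count in primed cells (SD, n = 3 each). CDH7 and CDH20 also rose, and CDH4, CDH6, CDH8, CDH13 and CDH24 fell, all named after their values were seen. Of 10 catenins and partners 7 rose and 3 fell, with CTNNB1, beta-catenin, at 792 ± 40.8 CPM in ectoderm and 460.2 ± 19.6 CPM in primed cells, AFDN, afadin, at 498 ± 4.29 and 309 ± 9.74 CPM, and NECTIN2, a nectin, at 115 ± 0.876 and 192 ± 10.9 CPM (SD, n = 3 each).

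CARHSP1 encodes a cold shock domain protein that binds RNA, and its knockdown was compared with the primed control. SNAI1 was lower, CDH2, EPCAM and VIM were higher, and CDH1 was slightly lower. Of 6 members tested, 3 were called higher and 2 lower, where 20.2% of all 15642 genes tested were called (10.3% higher, 9.87% lower). The groups did not overlap for 5 of the 6, against 33.9% of all genes tested. Their median log2 change was 0.17, against 0.00 over all genes tested.

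SNAI1 (ENSG00000124216, chr20:49982999-49988886 on the plus strand) had 7.98, 7.79 and 9.73 CPM in the CARHSP1 knockdown against 16.2, 17.0 and 15.6 CPM in the primed control. Every knockdown library was well below every control, 1.90-fold lower (log2 −0.92 ± 0.15; edgeR adjusted p = 1.45e-05), and in the alternatives the log2 change lay between −1.04 and −0.82. ZEB1 had 3, 3 and 11 counts in the knockdown against 0, 0 and 1 in the control, a ratio of 12.7 with an exact 95% counting interval of 1.99 to 529. It was below the filter, and without a filter the change did not pass (edgeR adjusted p = 0.150). ZEB2 had 2 counts over the knockdown and none over the control, and SNAI2 had 17 counts against 19.

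CDH1 had 635, 629 and 648 CPM in the CARHSP1 knockdown against 723, 704 and 699 CPM in the primed control, 1.12-fold lower (log2 −0.16 ± 0.04; edgeR adjusted p = 0.00366). CDH2 had 119, 121 and 126 CPM in the knockdown against 98.5, 86.6 and 95.5 CPM in the control, 1.30-fold higher (log2 0.37 ± 0.06; edgeR adjusted p = 1.46e-05). The groups of both genes were separate. CDH3 averaged 342 ± 3.58 CPM in the knockdown and 339.7 ± 5.502 CPM in the control, with an interval for the log2 change of −0.08 to 0.09 (edgeR adjusted p = 0.975). EPCAM had 201, 202 and 200.4 CPM in the knockdown against 161, 156 and 156 CPM in the control (log2 0.34 ± 0.05; edgeR adjusted p = 2.92e-06). VIM had 103, 107 and 106 CPM in the knockdown against 81.0, 77.0 and 70.7 CPM in the control (log2 0.46 ± 0.06; edgeR adjusted p = 1.06e-06). The called changes of the 5 members kept their direction and stayed under the threshold in all 13 alternatives.

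Of the 34 epithelial junction and polarity genes, 2 rose and 10 fell in the CARHSP1 knockdown, with a median of −0.07. ELF3, an epithelial transcription factor, averaged 5.07 ± 0.598 CPM in the knockdown and 12.2 ± 0.980 CPM in the control (log2 −1.29 ± 0.18), and the junction gene TJP3 averaged 10.3 ± 2.74 and 16.8 ± 1.78 CPM (log2 −0.71). F11R, a junctional adhesion gene, was among the 2 that rose, at 214 ± 1.11 CPM in the knockdown and 180.4 ± 6.07 CPM in the control (log2 0.24). Of 21 mesenchymal genes tested 5 rose and 6 fell. TAGLN averaged 159.6 ± 11.3 CPM in the knockdown and 44.2 ± 4.27 CPM in the control (log2 1.85), while FN1 averaged 360.0 ± 14.2 and 517 ± 9.42 CPM (log2 −0.53) and COL6A1 179 ± 28.2 and 259 ± 3.47 CPM (log2 −0.54; SD, n = 3 each). Leaving out replicate 1 of the primed control lowered the epithelial count to 1 risen and 6 fallen. The summed fibroblast markers were at 238 to 277 CPM in the knockdown against 277 to 300.2 CPM in the control, and the neural crest markers at 203 to 209 CPM against 203.5 to 206 CPM. Gene by gene, of 5 neural crest markers tested 1 was called higher and 3 lower, with a median log2 change of −0.64. The trophoblast and amnion markers summed to 35.4 to 41.6 CPM in the knockdown against 50.3 to 62.0 CPM in the control. The naive pluripotency markers summed to 228 to 244 CPM against 231 to 240 CPM. Of 7 naive markers tested, 0 were called higher and 5 lower, with a median of −0.84. Their part in the changes of the members was not tested.

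In naive H1 cells, libraries labelled as ZNF8 knockdown had more CDH2, more EPCAM and more SNAI2 than their control. ZNF8 encodes a zinc finger protein, and its own transcript was not called lower in these libraries. Of 7 members tested, 3 were called higher and 0 lower by edgeR, with 0 lower at an unadjusted p under 0.05 and 0 lower by DESeq2, where 24.2% of all 15323 genes tested were called (11.9% higher, 12.3% lower). The groups did not overlap for 3 of the 7, against 37.1% of all genes tested.

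CDH2 had 53.9, 45.9 and 45.3 CPM in the ZNF8 knockdown against 31.8, 34.4 and 30.5 CPM in the naive control, with no overlap (log2 0.56 ± 0.09; edgeR adjusted p = 8.76e-06). This call held in all 13 alternatives. EPCAM had 294, 278 and 326 CPM in the knockdown against 266, 244 and 260.0 CPM in the control (log2 0.20 ± 0.06; edgeR adjusted p = 0.00763). Without knockdown replicate 3 or control replicate 2 it no longer passed (0.0859 and 0.0786). SNAI2 had 41, 35 and 17 counts in the knockdown, at 2.13, 2.71 and 1.47 CPM, against 5, 12 and 10 counts in the control, at 0.424, 1.04 and 1.06 CPM. Its groups did not overlap (log2 1.31 ± 0.44; edgeR adjusted p = 0.0249), but the call was lost with DESeq2 (0.0504), with all H1 groups in 1 fit (0.0670), and without knockdown replicate 1 (0.0823), knockdown replicate 2 (0.141) or control replicate 1 (0.145).

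The other members were not called. SNAI1 had 14.3, 17.5 and 13.1 CPM in the ZNF8 knockdown against 19.1, 16.2 and 17.2 CPM in the naive control (log2 −0.26, 95% interval −0.52 to 0.01; edgeR adjusted p = 0.170). CDH1 averaged 907 ± 9.56 and 912 ± 31.8 CPM (edgeR adjusted p = 0.613), CDH3 242 ± 14.9 and 257 ± 17.0 CPM (0.156) and VIM 66.8 ± 4.07 and 63.9 ± 7.49 CPM (0.828; SD, n = 3 each), all with overlapping groups. For CDH3 the adjusted p was 0.0482 after adjusting for GC content and transcript length. ZEB1 had 4 counts over the knockdown and 0 over the control, and ZEB2 had 8 and 2.

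Of 33 epithelial junction and polarity genes tested in this pair, 10 rose and 8 fell, with a median of −0.03. GRHL3 averaged 53.8 ± 2.78 CPM in the ZNF8 knockdown and 32.4 ± 1.42 CPM in the control (log2 0.71), and RAB25, a vesicle transport gene of epithelia, 14.4 ± 1.80 and 28.8 ± 1.33 CPM (log2 −1.01). TJP3 averaged 26.7 ± 4.34 CPM in the knockdown and 49.9 ± 5.67 CPM in the control (log2 −0.92). Of 19 mesenchymal genes tested 8 rose and 6 fell, with TAGLN at 94.7 ± 4.75 CPM in the knockdown and 19.4 ± 0.356 CPM in the control (log2 2.26) and TNC, tenascin C, at 3.71 ± 0.431 and 13.6 ± 0.945 CPM (log2 −1.92; SD, n = 3 each). COL6A1 averaged 321 ± 28.4 CPM in the knockdown and 156 ± 18.9 CPM in the control (log2 1.01). TAGLN was thus called higher in each of the 3 knockdowns against its own control. The naive pluripotency markers summed to 537 to 556 CPM in the knockdown against 792 to 825 CPM in the control, and the trophoblast and amnion markers to 232 to 251 CPM against 297 to 307 CPM. The fibroblast markers summed to 396 to 436 CPM in the knockdown against 306 to 317 CPM in the control. Of 4 fibroblast markers tested, 3 were called higher and 0 lower. The neural crest markers summed to 361 to 394 CPM against 301 to 312 CPM. Of 7 neural crest markers tested, 1 was called higher and 4 lower. Their part in the changes of the members was not tested.

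**Figure D3:**
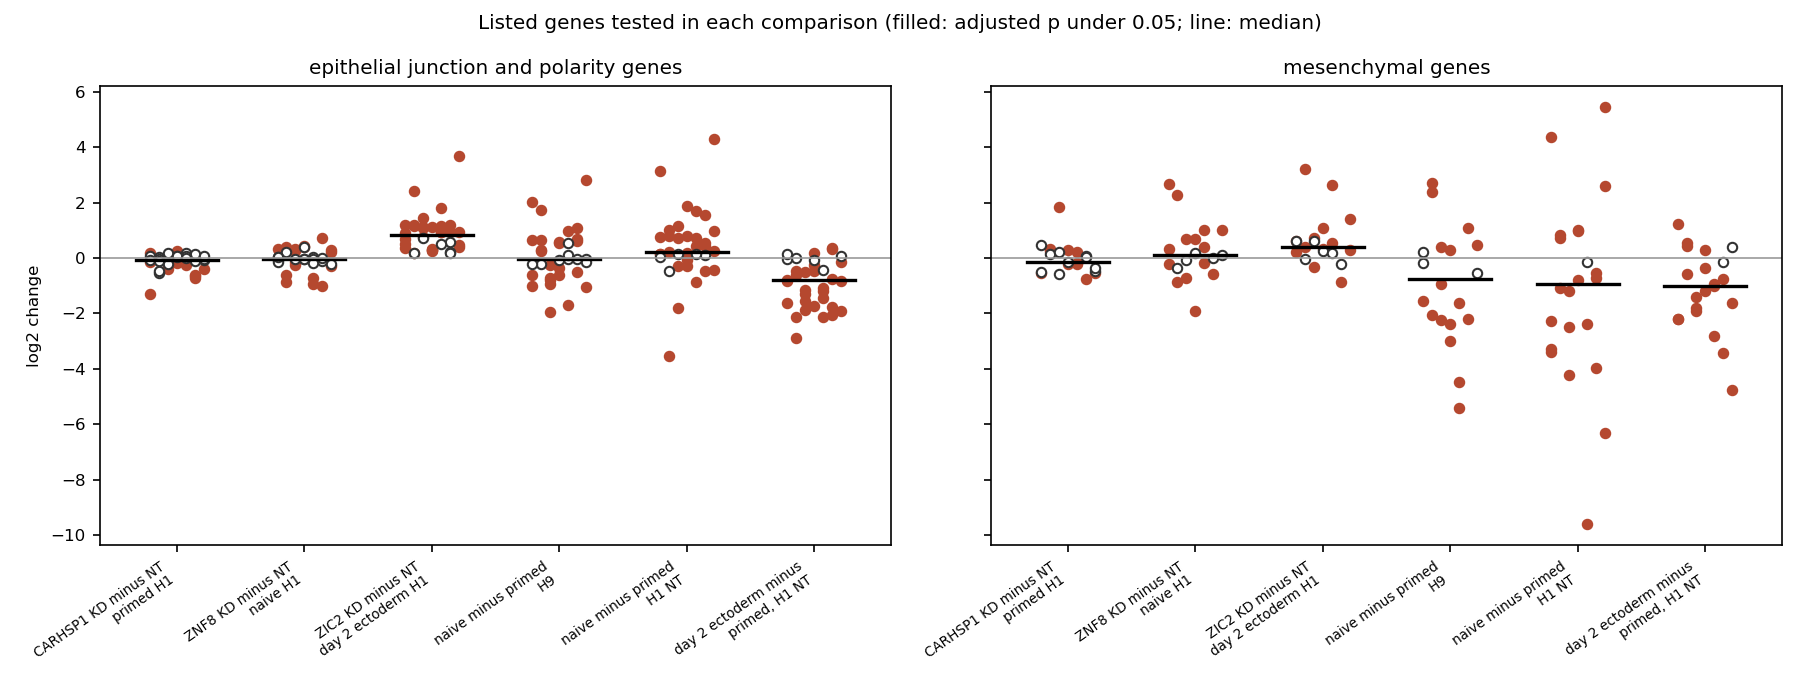
log2 change (vertical axis) of each tested gene of the epithelial junction and polarity list (left) and the mesenchymal list (right) in 6 comparisons, filled where the edgeR adjusted p was under 0.05, with a line at the median; TWIST1 in H9 is not plotted because the primed libraries held no count of it. The epithelial median was 0.82 in the ZIC2 knockdown and −0.80 in control ectoderm against primed cells, 2 comparisons that share 3 control libraries.

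Naive and primed cells were compared in both lines. In H9, naive cells had more CDH1, CDH3 and EPCAM and less CDH2 than primed cells. Of 6 members tested, 3 were called higher and 1 lower, where 51.5% of all 15761 genes tested were called (25.4% higher, 26.1% lower), and the groups did not overlap for 4 of the 6, against 57.4% of all genes tested. Among H1 controls 2 of 6 were called higher and 3 lower, where 71.1% of all 15874 genes tested were called (35% higher, 36.1% lower). There too the groups did not overlap for 4 of the 6, against 72.7% of all genes tested.

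CDH1 had 713, 728 and 801 CPM in naive H9 against 467, 505 and 483 CPM in primed H9 (log2 0.63 ± 0.08; edgeR adjusted p = 2.71e-06). In H1 controls it had 937, 923 and 877 CPM in naive cells against 723, 704 and 699 CPM in primed cells (log2 0.36 ± 0.04; edgeR adjusted p = 4.81e-13). CDH2 had 10.96, 11.5 and 11.7 CPM in naive H9 against 30.5, 29.03 and 31.9 CPM in primed H9 (log2 −1.41 ± 0.13; edgeR adjusted p = 2.16e-08). In each line every naive library lay above every primed library for CDH1 and below for CDH2. In H1 controls CDH2 had 31.8, 34.4 and 30.5 CPM in naive cells against 98.5, 86.6 and 95.5 CPM in primed cells (log2 −1.54 ± 0.08; edgeR adjusted p = 7.08e-27).

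CDH3 was where the lines parted. It had 396, 394 and 379 CPM in naive H9 against 282, 286 and 278 CPM in primed H9 (log2 0.48 ± 0.08; edgeR adjusted p = 4.15e-05), but 244, 276 and 249.7 CPM in naive H1 controls against 345, 334 and 339.7 CPM in primed H1 controls (log2 −0.40 ± 0.05; edgeR adjusted p = 1.08e-11). The groups were separate in both lines, in opposite directions. Fitted in 1 model over the 4 groups, the log2 change of naive over primed cells in H9 minus that in H1 was 0.87 ± 0.09 for CDH3 (edgeR adjusted p = 1.38e-09) and 0.26 ± 0.09 for CDH1 (edgeR adjusted p = 0.0124). In that test 2 of 6 members were called, both positive, where 49.9% of all 17140 genes tested were called (26.2% positive). For CDH2 the difference was 0.11, with an interval of −0.17 to 0.40 (edgeR adjusted p = 0.546), and for EPCAM 0.20 ± 0.10 (edgeR adjusted p = 0.0975). Line, deposited table, doxycycline and nontargeting label change together between H9 and H1 and cannot be told apart.

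EPCAM averaged 422 ± 31.0 CPM in naive H9 and 227 ± 19.4 CPM in primed H9 (log2 0.91 ± 0.09; edgeR adjusted p = 5.43e-08), and 256 ± 11.2 CPM in naive and 158 ± 3.06 CPM in primed H1 controls (log2 0.70 ± 0.05; edgeR adjusted p = 4.54e-20). VIM averaged 65.5 ± 0.996 CPM in naive and 69.0 ± 8.80 CPM in primed H9 (edgeR adjusted p = 0.618), and 63.9 ± 7.49 CPM in naive and 76.2 ± 5.18 CPM in primed H1 controls (log2 −0.25 ± 0.08; edgeR adjusted p = 0.00263; SD, n = 3 each). VIM groups overlapped in both lines. SNAI1 was not called in H9 (log2 −0.15; edgeR adjusted p = 0.463) or in H1 (log2 0.11; edgeR adjusted p = 0.470). In H9 its lower level in naive cells passed after adjusting for GC content and transcript length (log2 −0.37; edgeR adjusted p = 0.0180). ZEB1 and ZEB2 were below the filter in both, with 3 ZEB1 counts in naive H9 against 14 in primed H9 and 8 ZEB2 counts against 5.

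Of the 34 epithelial junction and polarity genes, 13 rose and 12 fell in naive H9, and 21 rose and 8 fell in naive H1 controls. ELF3 averaged 52.4 ± 3.14 CPM in naive and 13.1 ± 1.70 CPM in primed H9, and 109 ± 1.68 CPM in naive and 12.2 ± 0.980 CPM in primed H1 controls. In H9, PKP2 averaged 14.1 ± 1.06 CPM in naive and 45.4 ± 1.72 CPM in primed cells, and CLDN4, a claudin, 6.63 ± 0.513 and 25.6 ± 2.81 CPM. In H1 controls, KRT8 averaged 1634 ± 90.5 CPM in naive and 442 ± 16.5 CPM in primed cells, and DSP, desmoplakin, 756 ± 11.9 and 382 ± 9.42 CPM. Of the mesenchymal list 7 rose and 10 fell of 20 tested in H9, and 7 rose and 14 fell of 22 in H1, with COL1A1 at 38.5 ± 2.31 CPM in naive and 182 ± 38.2 CPM in primed H9 and at 6.66 ± 1.42 and 122 ± 3.02 CPM in H1 controls. THY1 averaged 27.4 ± 0.0974 CPM in naive and 144 ± 18.6 CPM in primed H9, and 0.5003 ± 0.254 and 409.7 ± 4.54 CPM in H1 controls. MMP2, a matrix protease, averaged 4.004 ± 0.209 CPM in naive and 32.2 ± 2.39 CPM in primed H9, and FN1 3162 ± 69.8 CPM in naive and 517 ± 9.42 CPM in primed H1 controls (SD, n = 3 each). Of 10 catenins and cadherin partners, 0 rose and 8 fell in naive H9, and 4 rose and 5 fell in naive H1 controls. In H9, 0 of them were higher at an unadjusted edgeR p under 0.05 and 0 by DESeq2. Of all genes tested, 51.5% were called in H9 and 71.1% in H1. The trophoblast and amnion markers summed to 297 to 307 CPM in naive H1 controls against 50.3 to 62.0 CPM in primed H1 controls, and the mesendoderm and mesoderm markers to 139 to 157 CPM against 8.04 to 9.94 CPM. In H9 the trophoblast and amnion markers summed to 115 to 116 CPM in naive cells against 75.1 to 87.9 CPM in primed cells. Their part in the changes of the members was not tested.

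The balance of the cadherins can be read as the ratio of CDH1 to CDH2 reads per base. It was 11.95 ± 0.599 in the ZIC2 knockdown and 6.62 ± 0.336 in control ectoderm. The ratio was 7.34 ± 0.149 in the CARHSP1 knockdown and 10.7 ± 0.647 in the primed control, and 26.5 ± 2.31 in the ZNF8 knockdown and 39.9 ± 1.87 in the naive control. Naive H9 had 92.3 ± 3.76 and primed H9 22.4 ± 1.79 (SD, n = 3 each). Within each of these pairs the 3 ratios of a group lay all above or all below the 3 of the other, and CDH1 exceeded CDH2 in all 24 libraries. The ratio is a description without a test, since 3 libraries against 3 cannot give a permutation p below 0.10.

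**Figure D4:**
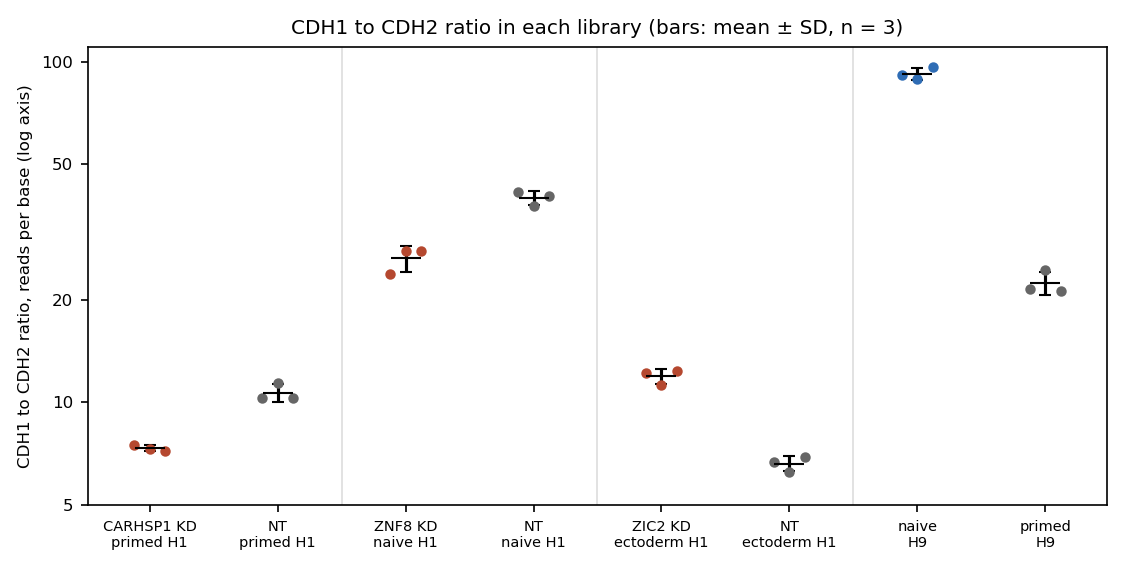
Ratio of CDH1 to CDH2 reads per base of gene length (log axis) in each library, with bars for mean ± SD, n = 3; each knockdown stands left of its control and naive H9 left of primed H9. The ratio was lowest in control ectoderm (6.25 to 6.91) and highest in naive H9 (89.1 to 96.5).

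The microRNAs themselves are too short for these libraries, so only host transcripts were read, those of miR-205 and of miR-200c with miR-141. No host transcript was read for miR-200a, miR-200b or miR-429. MIR205HG, the host of miR-205, had 2.50, 2.02 and 2.93 CPM in the ZIC2 knockdown against 1.14, 0.682 and 0.831 CPM in control ectoderm (log2 1.49 ± 0.45; edgeR adjusted p = 0.0166), a call that was lost without knockdown replicate 3 or control replicate 2 or 3. It had 6.20, 6.02 and 5.16 CPM in the CARHSP1 knockdown against 3.08, 2.65 and 1.61 CPM in the primed control (log2 1.23 ± 0.27; edgeR adjusted p = 0.000882). In the ZNF8 knockdown it had 3.89, 3.40 and 2.51 CPM against 7.55, 6.34 and 5.32 CPM in the naive control (log2 −0.98 ± 0.24; edgeR adjusted p = 0.00196). MIR205HG thus was higher in 2 knockdowns and lower in the third, with no overlap of groups in any. MIR200CHG, the host of miR-200c and miR-141, had at most 1 CPM outside the naive H1 groups, where it had 1.51, 4.02 and 2.59 CPM in the ZNF8 knockdown against 1.02, 0.955 and 1.91 CPM in the control (edgeR adjusted p = 0.0620). That higher level was called without the low-count filter, without knockdown replicate 1 and without control replicate 3.

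The corepressors through which ZEB and SNAI proteins act changed in both directions. Of 12 genes, all tested, 5 rose and 2 fell in the ZIC2 knockdown, 3 rose and 2 fell in the CARHSP1 knockdown, and 0 rose and 3 fell in the ZNF8 knockdown. Of all genes tested, 28.1%, 20.2% and 24.2% were called in these comparisons. The ZIC2 count was 3 risen and 1 fallen without knockdown replicate 1, without control replicate 2 or 3, or after adjusting for GC content and transcript length. The CARHSP1 count was 2 risen and 1 fallen without knockdown replicate 3 or with all H1 groups in 1 fit, and 1 risen and 1 fallen without control replicate 1. In the ZNF8 knockdown, 2 of the 12 were higher at an unadjusted edgeR p under 0.05 and 0 by DESeq2, and the count was 2 risen and 3 fallen without knockdown or control replicate 3. HDAC2, a histone deacetylase, averaged 576 ± 4.29 CPM in the CARHSP1 knockdown and 486 ± 22.3 CPM in the primed control (log2 0.24). HDAC1 averaged 232 ± 3.67 CPM in the ZNF8 knockdown and 282 ± 10.9 CPM in the naive control (log2 −0.30; SD, n = 3 each). AJUBA, a LIM protein that binds SNAI proteins, averaged 54.9 ± 3.79 CPM in the ZIC2 knockdown and 30.8 ± 3.63 CPM in control ectoderm (log2 0.84). Beside VIM, 7 of 11 other intermediate filament genes tested rose and 0 fell in the ZIC2 knockdown (0 lower at an unadjusted edgeR p under 0.05, 0 by DESeq2), with LMNA, lamin A, at 76.9 ± 13.5 CPM in the knockdown and 22.6 ± 2.49 CPM in the control (log2 1.76; SD, n = 3 each).

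Patterns like those of the members were sought over the 18 H1 libraries among 11729 genes with a mean of at least 5 CPM, by Pearson correlation of log2 CPM. These libraries share 6 group means, so the values describe and carry no p. Nearest to ZEB2 were SERAC1 (0.99), PAMR1 (0.99) and ACADSB (0.99). Nearest to CDH2 were RALB (0.98), CHST10 (0.98) and ME2 (0.98), and nearest to CDH1 were FAM20A (0.97), MAN2B1 (0.97) and KDM6B (0.97). Nearest to SNAI1 was the knocked down gene CARHSP1 (0.94), at 19.2 CPM in its own knockdown and at 117 to 198 CPM as the mean of the other 5 H1 groups. Nearest to CDH3 was ZC3H7B (0.97), to EPCAM SARS1 (0.96) and to VIM RRM2B (0.93), while ZEB1 and SNAI2 had under 1 CPM on average. Among the members themselves, CDH1 and CDH2 had a correlation of −0.75 and CDH1 and VIM of −0.73, while ZEB2 and CDH1 had −0.02 and ZEB2 and CDH2 had 0.56. The transcript of ZEB2 thus was closer in pattern to that of CDH2 than to that of CDH1 over these libraries. It was closer still to SNAI1 (0.63) and to ZEB1 (0.86). ZEB2 was below 1 CPM outside ectoderm, so its correlations mostly set the ectoderm libraries against the others.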

How the data were processed

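Gene counts were read from a deposited H1 table (18 libraries used) and a deposited H9 table (6 libraries). The authors deposited raw read counts per gene, aligned with HISAT2 to GRCh38 per the submitters' processing notes. Neither labels nor headers name the counting tool or its use of strand. The deposited H1 table also gives a gene length in bases, used for levels per kilobase. A further 27 count columns were not used. Samples were grouped by the labels. Groups were compared in pairs with edgeR 4.0.16 in R 4.3.3 (TMM scaling, filterByExpr, glmQLFit and glmQLFTest, Benjamini-Hochberg adjustment over all genes tested), with 3 libraries in each group. The SE was taken from the F statistic, and a 95% interval is the log2 change with 1.96 SE on each side. The difference between lines was an interaction term over 4 groups. CPM values share TMM factors over all 24 libraries. The edgeR comparisons of pairs of groups were tested on simulated counts.

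Alternatives were DESeq2 1.42.0, its size factors within edgeR, no low-count filter, each library left out, all H1 groups in 1 fit, a replicate block, and an adjustment for GC content and transcript length (spline offsets with 5 degrees of freedom). Bounds against groups with no count use 3 counts over the group. All 189 listed genes were in the tables. Genes named from a list are among the up to 3 called with the smallest adjusted p in that comparison, except where the text says they were named after their values were seen. All 3 are named for the epithelial and mesenchymal lists, and some for the others. The members and lists were chosen with earlier results of these data known. Sequences come from RefSeq GRCh38.p14 and 3′ UTRs from GENCODE 29, and 4 of the 9 members had a promoter entry.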

Additional observations from a re-analysis of the deposited data

Results flagged for a closer look

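The log2 change of naive over primed cells differed between the lines for 2 members in an interaction fit. For CDH3, the change in H9 minus that in H1 was 0.87 on the log2 scale (edgeR adjusted p = 1.38e-09), with the gene higher in all 3 naive libraries of H9 and lower in all 3 of H1. For CDH1 it was 0.26 (edgeR adjusted p = 0.0124), with the gene higher in all 3 naive libraries of both lines. Both calls held in all 17 alternatives. Line, deposited table, doxycycline and nontargeting label cannot be told apart in this difference.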

How the results depend on the processing

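Of 629 member changes recomputed under an alternative, 594 kept their direction and their side of the threshold, 8 came to pass it, 14 ceased to and 13 changed sign. None of the 13 was called in either fit. Leaving out 1 library, CDH3 in the CARHSP1 knockdown lay between −0.0091 and 0.015 (below 0 without knockdown replicate 1 or 2 or primed control replicate 2). VIM in the ZNF8 knockdown lay between −0.023 and 0.13 (below 0 without knockdown replicate 3 or naive control replicate 2 or 3), and CDH1 in the ZIC2 knockdown between −0.031 and 0.016 (above 0 without knockdown replicate 1). SNAI1 in naive H9 lay between −0.24 and 0.00042 (above 0 without naive replicate 3), and VIM in ectoderm between −0.020 and 0.068 (below 0 without primed control replicate 3). Adjusting for GC content and length gave 0.027 for CDH1 in the ZIC2 knockdown and −0.11 for VIM in ectoderm, with or without the block. With 1 library left out, the number of members called stayed at 5 for CARHSP1, 5 for ZIC2, 4 for H9 and 5 for H1, and lay between 2 and 3 for ZNF8, 6 and 7 for ectoderm and 2 and 3 for the interaction. With that adjustment the interaction called 4 members in place of 2. Without gene length, the log2 ratio of CDH1 to CDH2 was 2.38 in the CARHSP1 knockdown, 2.92 in the primed control, 4.23 in the ZNF8 knockdown, 4.82 in the naive control, 3.09 in the ZIC2 knockdown, 2.23 in control ectoderm, 6.04 in naive H9 and 3.99 in primed H9, a constant shift set by the 2 lengths.

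Libraries with the same replicate number did not deviate together in every pair (correlations from −0.19 to 0.24 over the 6 comparisons). With 3 libraries in each group this cannot show whether equal numbers mark a shared batch or a pairing. With the replicate block the number of members called was 5 for CARHSP1, 3 for ZNF8, 5 for ZIC2, 4 for H9, 5 for H1 and 6 for ectoderm, where CDH1 no longer passed (edgeR adjusted p = 0.0569). Every library correlated best with its own number only in the CARHSP1 comparison. ZEB1 and SNAI2 are limited by depth, with at most 60 and 93 counts in any group.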
